A study of Mus musculus with 29 samples.

Results

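A set of 9 genes of hepatic glucose metabolism and insulin action were read from bulk RNA-seq of whole mouse liver. They were Pck1, G6pc, Fbp1, Pklr, Ppargc1a, Foxo1, Irs1, Irs2 and Insr, chosen by name with earlier results of these data known. All 9 were found among the 55421 genes in the table of read counts, and all 9 passed the filter on low counts in every comparison. The study compared young mice given vehicle, old mice given vehicle and old mice given HDM201, an inhibitor of the p53 ubiquitin ligase MDM2, in both sexes. Old females were 20 months old and old males 24 months in the labels, young mice of both sexes were 5 months, and the methods give ages that differ by a month for old females and for young mice. HDM201 was given by mouth every day at 10 mg/kg over 14 days, with methylcellulose as vehicle. The aged animals carried the C57BL/6J background and the young ones C57BL6/N, so age and substrain cannot be told apart in any comparison of old with young mice. Old females and old males differed in age. Sex and age therefore cannot be told apart where effects of age or of HDM201 are compared between the sexes. Counts covered 5 young vehicle, 4 old vehicle and 5 old HDM201 females, and 4 young vehicle, 4 old vehicle and 5 old HDM201 males. FPKM values covered another 2 mice, old vehicle male 1 and young vehicle male 5. Food was freely available, and neither fasting before death nor food intake is given in the labels or methods.

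Liver makes glucose when an animal fasts and breaks it down or stores it after a meal. In fasting, glucagon raises cAMP, and the transcription factors CREB and FOXO1 with the coactivator PGC-1alpha drive the enzymes that turn pyruvate and amino acids into glucose. After a meal, insulin binds its receptor, the receptor phosphorylates the adaptors IRS1 and IRS2, and the kinase AKT then keeps FOXO1 out of the nucleus, while glucose itself raises pyruvate kinase through the factor ChREBP. In mouse liver Irs2 and Pck1 transcripts are high in fasting, and Pklr transcript is high after carbohydrate feeding.

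Library depth lay between 16485900 and 23570458 gene counts, with a median of 19149235. Levels are given as CPM, counts scaled to library size, with TMM factors over the 27 mice with counts. Hepatocyte markers were present at a summed level of 84500 CPM or more in every mouse (7 of 8 markers found), and the adipose markers summed to at most 1.38 CPM. Mdm2, which p53 induces, was higher in HDM201-treated than in vehicle-treated old females (log2 fold change 0.33, SE 0.077, edgeR adjusted p = 0.0350), and in males the fold change was near 0 (0.00089, SE 0.076, edgeR adjusted p = 0.998). In whole tissue, fewer cells of a type and less RNA per cell cannot be told apart.

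With age in vehicle-treated females 6 of the 9 genes differed, beside 31.8% of the 14233 genes tested. Irs1 and Irs2, the adaptors of the insulin receptor, were higher in the old females, 2 of 9 beside 16.8% of all genes. Fbp1, Pklr, Ppargc1a and Insr were lower, 4 of 9 beside 15% of all genes. Pck1, G6pc and Foxo1 did not pass the test. In the other comparisons, which were of old with young males, HDM201 with vehicle in either sex, and young females with young males, none of the 9 passed. Differences are given as log2 fold changes from edgeR's quasi-likelihood test with their standard error (SE), p-values were adjusted over all genes tested by the Benjamini-Hochberg method (FDR), and a gene was called at an FDR under 0.05.

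The clock gene levels of the same females differed between these ages too. Per the methods, mice were dosed and killed in the morning, with no hour given. Dbp, a circadian output gene whose transcript peaks in the afternoon, lay at 269, 211, 91.6, 95.9 and 129 CPM in the young females and at 9.91, 4.28, 61.9 and 7.36 CPM in the old vehicle females. Arntl, whose transcript peaks around dawn, lay at 1.13, 0.615, 6.66, 11.2 and 1.23 CPM in the young females and at 24.3, 29.3, 10.6 and 26.7 CPM in the old. For Dbp all old females lay below all young ones, and for Arntl only the old female 3 fell within the young range. When the log2 level of Dbp was added to the fit as a covariate, 103 genes and 0 of the 9 were called, with edgeR adjusted p-values of 0.296 to 0.987 for the 6 genes. The fold changes in that fit were -0.75 for Pklr, -0.56 for Fbp1, 0.71 for Irs2 and 0.39 for Irs1, beside -0.047 for Ppargc1a and -0.011 for Insr. Dbp levels of the groups did not overlap, so that fit cannot tell clock phase from age. With limma on log2(FPKM + 0.1), without further normalization between mice, Irs1 and Irs2 were called and the other 4 were not.

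**Figure D1:**
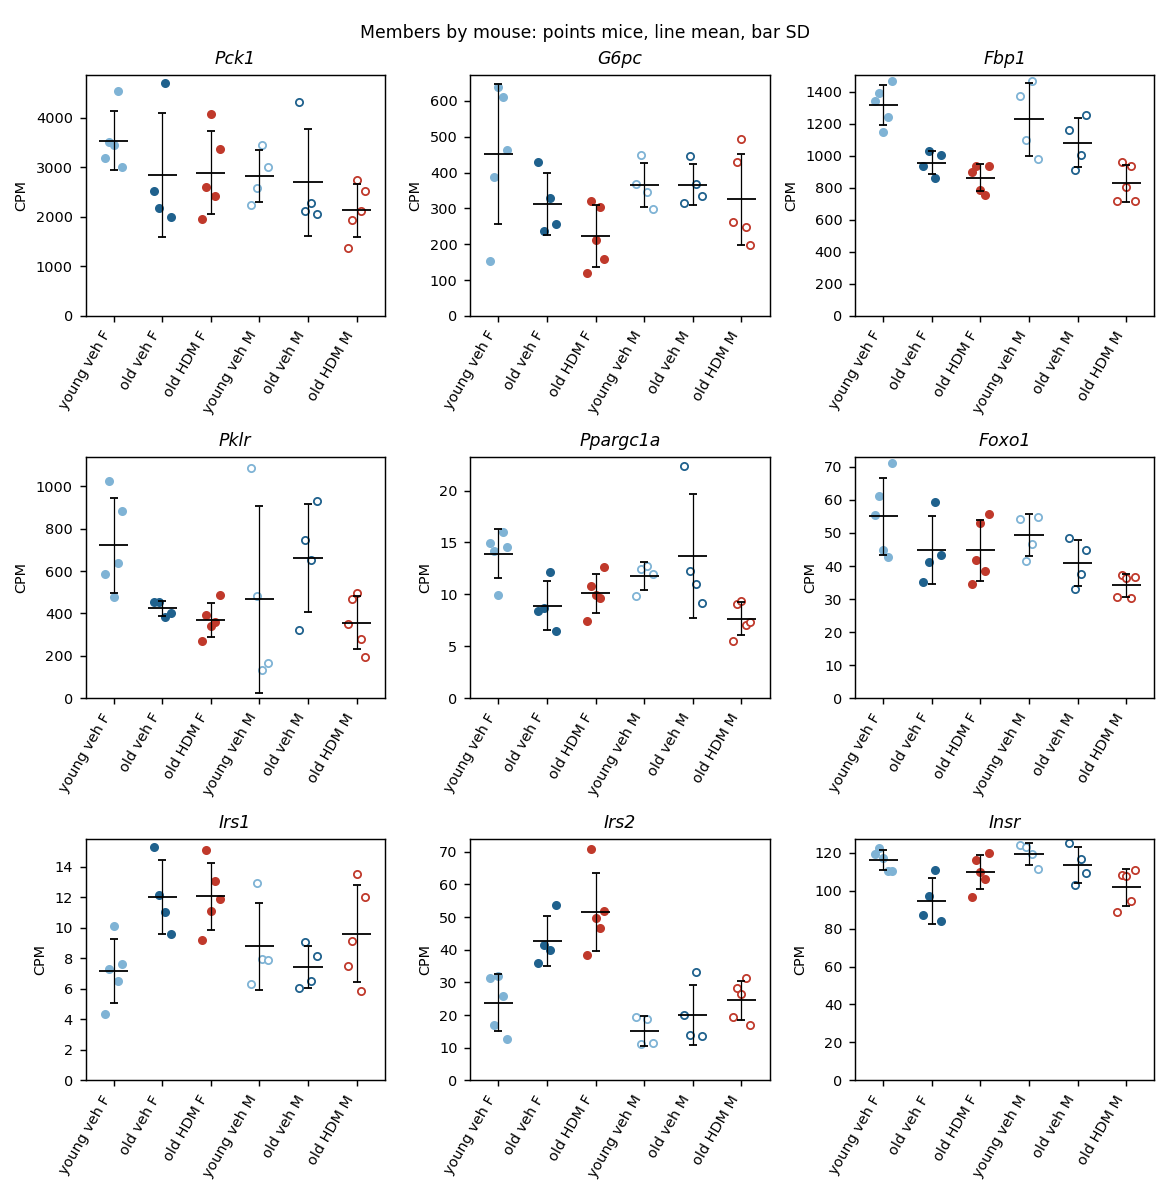
CPM of each of the 9 genes (vertical axis, from 0) in the 6 groups, with one point per mouse, a line at the mean and a bar of 1 SD; F and M are females and males, veh is vehicle and HDM is HDM201. Irs2 in the 4 old vehicle females (35.9 to 53.7 CPM) lay above all 5 young females (12.7 to 32.0 CPM), and Pklr in young males spread from 135 to 1087 CPM.

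Per kilobase of exon, the enzymes were the most abundant of the 9. Pck1 averaged 824 CPM per kb over the group means, followed by Fbp1 at 615, Pklr at 155 and G6pc at 141. The signalling genes were lower, with Insr at 7.95, Foxo1 at 5.17, Irs2 at 4.69, Ppargc1a at 1.67 and Irs1 at 1.04 CPM per kb.

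Pck1 (mm10 chromosome 2, 173153048 to 173159273, plus strand) encodes cytosolic phosphoenolpyruvate carboxykinase, which commits oxaloacetate to glucose synthesis. Its promoter is the textbook cAMP-responsive one and is shown for that reason, from RefSeq (GRCm38.p6, chr2:173152823-173153007, plus strand, bases -250 to -66 before the start site). Capitals mark the CRE half-site TGACG, here read on the other strand as CGTCA, at -90 to -86, letters that 20.8% of all 32851 promoter windows hold on either strand.
Pck1: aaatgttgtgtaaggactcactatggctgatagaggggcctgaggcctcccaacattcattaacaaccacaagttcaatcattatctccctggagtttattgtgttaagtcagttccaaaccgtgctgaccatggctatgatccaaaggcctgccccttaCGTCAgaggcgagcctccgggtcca

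Pck1 levels lay at 3187, 3520, 3453, 4542 and 3004 CPM in young females and at 2522, 2182, 4711 and 2007 CPM in old vehicle females. The old female 3, at 4711 CPM, lay above all young females and the other 3 below all of them. The log2 fold change of old against young was -0.29 (SE 0.22, edgeR adjusted p = 0.344). Without that mouse it was -0.64 and passed (edgeR adjusted p = 0.00590); among the old vehicle females it also had the highest Dbp level. Old vehicle male 2 stood apart in the same way, with 4323 CPM beside 2112, 2289 and 2067 CPM in the others of its group. Pck1 had its highest group mean in young vehicle females (3541 CPM, SD 597, n = 5) and its lowest in old HDM201 males (2136 CPM, SD 537, n = 5), and each group overlapped the next in that order.

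G6pc (chromosome 11, 101367561 to 101377903, plus strand) encodes the catalytic subunit of glucose-6-phosphatase, the last step before glucose leaves the cell. In young females it lay at 154, 389, 640, 611 and 463 CPM, and in old vehicle females at 429, 237, 330 and 256 CPM. These ranges overlapped, and the difference of -0.51 (SE 0.32) did not pass (edgeR adjusted p = 0.248). Leaving out young female 1, the mouse at 154 CPM, gave -0.73 (edgeR adjusted p = 0.0189). Old HDM201 females had the lowest group mean, 223 CPM (SD 87.8, n = 5), and each group overlapped the next in the order of means.

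Fbp1 (chromosome 13, 62864753 to 62888282, minus strand) encodes fructose-1,6-bisphosphatase, which opposes phosphofructokinase. Its levels were 1342, 1392, 1146, 1240 and 1470 CPM in young females and 934, 1028, 865 and 1004 CPM in old vehicle females. The groups did not overlap, as for 25.9% of all genes tested. Fbp1 was lower in the old females by a log2 fold change of -0.44 (SE 0.097, edgeR adjusted p = 0.00476), the smallest adjusted p of the 9, and was called with each of the 9 mice left out in turn. In males the fold change with age was -0.17 (SE 0.16, edgeR adjusted p = 0.582). Group means ran from young females (1318 CPM) and young males (1229 CPM) to old HDM201 females (864 CPM) and old HDM201 males (828 CPM), with overlap between all neighbours.

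Pklr (chromosome 3, 89136142 to 89146784, plus strand) encodes liver pyruvate kinase, which catalyses the last step of glycolysis. The promoter of its second RefSeq start site is shown because it holds, in capitals, a carbohydrate response element, the letters CACGNG and CNCGTG with 5 bases between them, at -170 to -154 (GRCm38.p6, chr3:89136373-89136489, plus strand, bases -250 to -134). Of all promoter windows, 15 of 32851 (0.0457%) match that pattern.
Pklr: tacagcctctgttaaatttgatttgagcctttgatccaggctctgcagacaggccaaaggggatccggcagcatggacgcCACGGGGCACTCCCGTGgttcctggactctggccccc

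Pklr levels were 587, 1026, 480, 637 and 884 CPM in young females and 454, 456, 384 and 403 CPM in old vehicle females. All old females lay below all young ones and within a narrow range. The log2 fold change was -0.75 (SE 0.19, edgeR adjusted p = 0.010), and it passed with each mouse left out. With all 6 groups in one fit the adjusted p was 0.169 at nearly the same fold change, -0.77. Young males were the most scattered group, at 1087, 480, 135 and 165 CPM, and the difference of old from young males, 0.52 (SE 0.59), had a 95% interval of -0.81 to 1.84. Hcn3, a channel gene on the opposite strand (chromosome 3, 89146074 to 89160196), shares 711 exon bases with Pklr. Whether reads were counted by strand is not stated, so reads from the shared bases may be missing from the counts of either gene.

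Ppargc1a (chromosome 5, 51454250 to 51567726, minus strand) encodes PGC-1alpha, the coactivator that fasting induces. It lay at 14.9, 14.2, 9.93, 16 and 14.6 CPM in young females and at 8.43, 8.68, 12.1 and 6.42 CPM in old vehicle females. The ranges overlapped only through young female 3 and old female 3. The fold change was -0.62 (SE 0.18, edgeR adjusted p = 0.0175), and without old female 4 it was -0.49 (edgeR adjusted p = 0.0525). In males it was 0.23 (SE 0.25), and the difference between the sexes, -0.84 (SE 0.33), had an unadjusted p of 0.0184 from edgeR and an adjusted p of 0.140.

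Foxo1 (chromosome 3, 52268336 to 52353221, plus strand) encodes the transcription factor that insulin inhibits. Its group means ran from 55.0 CPM (SD 11.7, n = 5) in young females to 34.2 CPM (SD 3.46, n = 5) in old HDM201 males, each overlapping the next. The log2 fold changes with age were -0.28 (SE 0.17) in females and -0.26 (SE 0.14) in males, with edgeR adjusted p-values of 0.227 and 0.323. FOXO1 is controlled mainly by phosphorylation, which RNA does not show.

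Insr (chromosome 8, 3122061 to 3279617, minus strand) encodes the insulin receptor. It lay between 110 and 122 CPM in young females, while old vehicle females lay at 87.3, 97.3, 111 and 83.8 CPM. The other females of that group, all but number 3, lay below all the young ones. The fold change was -0.27 (SE 0.089, edgeR adjusted p = 0.0354). It was not called in 5 of the 9 fits with one mouse left out, those without old female 1, 2 or 4 or young female 1 or 2, at edgeR adjusted p-values of 0.0612 to 0.112. HDM201-treated old females lay at 96.8, 116, 110, 106 and 120 CPM, and their difference from vehicle of 0.19 (SE 0.090) had an edgeR adjusted p of 0.231.

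Irs1 (chromosome 1, 82233101 to 82291416, minus strand) and Irs2 (chromosome 8, 10984681 to 11008458, minus strand) encode the adaptors that carry the signal from the receptor to phosphoinositide 3-kinase. Because they were the only members to rise with age in females, the stretches before both start sites are shown (RefSeq, GRCm38.p6). The first is chr1:82291445-82291689, bases -250 to -6, and the second chr8:11008940-11009179, bases -250 to -11, both on the minus strand. In capitals are the E-box CACGTG, which 7.15% of promoter windows hold, the insulin response element core TGTTTTG, which 6.28% hold, and in Irs1 a CRE half-site (CGTCA) that overlaps the E-box.
Irs1: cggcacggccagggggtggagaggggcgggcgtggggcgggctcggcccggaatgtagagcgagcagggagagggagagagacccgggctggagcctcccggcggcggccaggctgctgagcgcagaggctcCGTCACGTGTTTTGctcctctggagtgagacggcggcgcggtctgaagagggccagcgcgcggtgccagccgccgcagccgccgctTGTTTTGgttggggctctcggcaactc
Irs2: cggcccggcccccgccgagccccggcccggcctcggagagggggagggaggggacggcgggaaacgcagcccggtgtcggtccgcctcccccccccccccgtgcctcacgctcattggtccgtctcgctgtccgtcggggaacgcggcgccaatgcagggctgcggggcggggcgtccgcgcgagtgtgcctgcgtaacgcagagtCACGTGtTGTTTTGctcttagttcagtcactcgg

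In Irs1 the run of capitals joins the CRE half-site at -118 to -114, the E-box at -115 to -110 and TGTTTTG at -111 to -105, which overlap each other, and TGTTTTG recurs at -32 to -26. In Irs2 the E-box lies at -44 to -39 and TGTTTTG at -37 to -31. A match of letters is not evidence that a factor bound there. The letters TGTTTAC, taken as a FOXO site and held by 3.65% of windows, and the full CRE TGACGTCA (1.79%) matched none of the 8 members with a promoter entry. Matches were sought to exact letters only, so other forms of a FOXO site are not covered. Letters marked in Irs1 or Irs2 also occurred in members that did not rise, TGTTTTG at -174 to -168 in G6pc and the CRE half-site at -49 to -45 in Ppargc1a.

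Irs1 lay at 4.35, 7.28, 10.1, 6.49 and 7.60 CPM in young females and at 15.3, 12.2, 11.0 and 9.61 CPM in old vehicle females. Only young female 3 reached into the old range. The log2 fold change was 0.76 (SE 0.20, edgeR adjusted p = 0.0120), and it passed with each mouse left out. In males the change was -0.23 (SE 0.22, edgeR adjusted p = 0.591). The difference between the sexes was 1.00 (SE 0.32) with an edgeR adjusted p of 0.0801, while DESeq2 gave 0.99 with an adjusted p of 0.0354. Without young vehicle male 1 the edgeR adjusted p was 0.0408, and without young vehicle female 3 it was 0.0417. The predicted gene Gm9747 lies wholly within an Irs1 exon on the other strand (chromosome 1, 82233112 to 82235933). It has 0 counts in all 27 mice and FPKM values of 1.97 to 7.95, so reads from this stretch may be missing from the Irs1 counts.

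Irs2 lay at 31.5, 17.1, 32.0, 25.8 and 12.7 CPM in young females and at 35.9, 41.5, 40 and 53.7 CPM in old vehicle females. All old females lay above all young ones. The fold change was 0.87 (SE 0.23, edgeR adjusted p = 0.0121) and passed with each mouse left out. HDM201-treated old females lay at 38.5, 70.9, 49.8, 46.8 and 51.8 CPM, the highest group mean at 51.6 CPM (SD 12.0). Old males were lower, with 20.0, 13.7, 33.1 and 13.6 CPM on vehicle and 17.1 to 31.2 CPM on HDM201, and both female groups of old mice lay above every male with counts. The sexes were tested only in young mice, where the female minus male difference was 0.64 (SE 0.28, edgeR adjusted p = 0.154). An exon of Irs2 shares 162 bases with the transcript 9530052E02Rik on the other strand, which had at most 9 counts in a mouse.

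**Figure D2:**
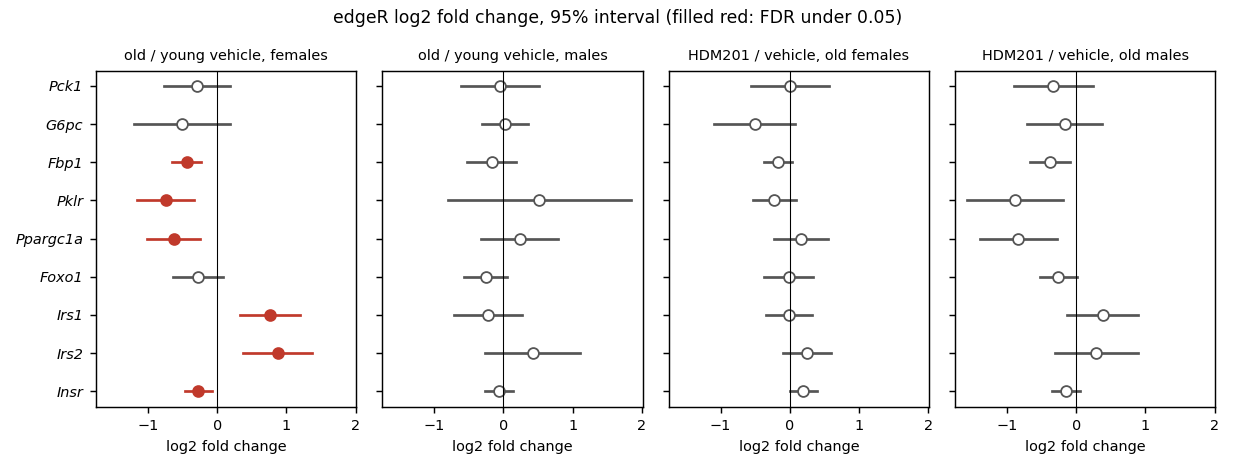
Log2 fold change from edgeR with its 95% interval (horizontal axis) for the 9 genes in 4 comparisons; filled red points passed an FDR of 0.05. Irs1 at 0.76 and Irs2 at 0.87 lie right of 0 in the comparison of old with young females and Fbp1, Pklr, Ppargc1a and Insr lie left of it; no point is filled in the other panels.

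In old females, HDM201 left 0 of the 9 genes called by edgeR, beside 5.25% of all 14445 genes tested. None of them had an unadjusted p under 0.05 either (22.5% of all genes), and DESeq2 also called 0. The largest fold change was -0.51 for G6pc (SE 0.27, 95% interval -1.09 to 0.08). G6pc lay at 120, 320, 212, 304 and 159 CPM on HDM201, and 3 of these 5 mice were below all vehicle-treated old females. For Pck1 the interval was -0.57 to 0.56 and for Irs2 -0.10 to 0.60, both including 0. Dbp lay at 13.7 to 225 CPM in these HDM201-treated females, beside 4.28 to 61.9 CPM on vehicle, and with Dbp as a covariate 0 of the 9 genes were called.

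Among old males, edgeR called 0 of the 9 genes with HDM201, beside 0.00709% of 14109 genes, and DESeq2 called 0. At an unadjusted p under 0.05, which 12.1% of all genes reached, 3 members were lower: Ppargc1a, Pklr and Fbp1. Pklr lay at 348, 468, 497, 279 and 194 CPM on HDM201 and at 320, 747, 651 and 932 CPM on vehicle. Vehicle-treated male 2 was the only one within the HDM201 range, and the log2 fold change was -0.88 (SE 0.31, edgeR adjusted p = 0.327). For Ppargc1a, with 22.4, 12.3, 11.0 and 9.13 CPM on vehicle and 5.51 to 9.35 CPM on HDM201, the fold change was -0.83 (SE 0.25, edgeR adjusted p = 0.276). Without vehicle-treated male 2, the mouse at 22.4 CPM, it was -0.49 (edgeR adjusted p = 0.361), and that of Pck1 went from -0.33 to -0.0048. The female minus male difference in the HDM201 effect was called for 0 of the 9 genes (0.107% of 14974), by DESeq2 as well, and was 1.00 for Ppargc1a (SE 0.33, edgeR adjusted p = 0.124). An unadjusted p under 0.05 was reached there by Ppargc1a and Insr, 2 of 9, beside 18.5% of all genes.

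With age in males 0 of the 9 genes were called by edgeR (3.69% of 13755 genes) and 0 by DESeq2, and none reached an unadjusted p under 0.05, which 21.9% of genes did. Between young females and young males 0 were called by edgeR and by DESeq2, beside 10.5% of 13875 genes, and Irs2 was the 1 member with an unadjusted p under 0.05 (27.6% of genes). Without young male 1, which had the highest Pklr level of all mice, Pklr was higher in females by 1.47 (edgeR adjusted p = 0.0311). The difference between the sexes in the effect of age was called for 0 of 9 by edgeR, beside 3.92% of 14721 genes, and for 1, Irs1, by DESeq2. Irs1 and Ppargc1a had an unadjusted p under 0.05 there, as did 21.5% of genes. Without young male 1 Pklr passed in that test too (-2.10, edgeR adjusted p = 0.0226).

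The other genes of the pathways were called with age in females in both directions, given below as log2 fold changes. Of 17 further gluconeogenic genes tested, 2 were higher and 8 lower, 58.8% beside the 31.8% of all genes (16.8% higher and 15% lower), with a median log2 fold change of -0.34 beside 0.0094 over all genes. On the log2 scale Got1, an aminotransferase that yields oxaloacetate, fell by 1.49. Slc37a4, the transporter that brings glucose-6-phosphate to G6pc, fell by 0.94, and Sds, which degrades serine, fell by 0.97. In males Sds was lower with age too (-1.44, SE 0.32, edgeR adjusted p = 0.0405). Pck2, the mitochondrial counterpart of Pck1, had a log2 rise of 1.03 in females (SE 0.18, edgeR adjusted p = 0.00145) and 1.22 in males (SE 0.20, edgeR adjusted p = 0.0130). It lay at 2.84 to 4.94 CPM in young and 6.80 to 9.94 CPM in old vehicle females without overlap. Pcx, the pyruvate carboxylase that supplies oxaloacetate, was not called (-0.17, SE 0.075).

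Among 29 further glycolytic genes 10 were higher and 7 lower in old than in young females, 58.6% beside 31.8% of all genes, with a median of -0.014. The hexokinases Hk2 (2.00) and Hk3 (1.25) and the regulatory enzyme Pfkfb4 (1.76) rose most, and Pfkfb3 (-1.65), Pfkfb1 (-1.35) and Aldoc (-0.99) fell most on the log2 scale. Pkm, the pyruvate kinase of most tissues other than liver, rose by 0.90 in females and 0.99 in males (log2), opposite to Pklr in females. The glucose transporter Slc2a2 fell by 0.87 (log2). Hk3 and Pik3cd, both known from leukocytes, changed in the same comparisons as the macrophage markers. The 12 macrophage markers summed to 316 to 469 CPM in young, 492 to 1016 CPM in old vehicle and 304 to 504 CPM in old HDM201 females, and none of the 12 was at 0 throughout a group. With age 10 of 12 were called higher and 1 lower (Cd163, from a mean of 19.8 to 5.52 CPM), and with HDM201 10 of 12 were called lower in females. Hk3 rose by 1.25 with age and fell by 1.08 with HDM201, and Pik3cd rose by 1.34 and fell by 0.92 (log2), but these comparisons share the old vehicle females. The part of macrophages in these values was not tested.

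Of 48 further genes of insulin signalling 11 were higher and 7 lower in old females, and that share, 37.5%, was near the 31.8% of all genes. Ide, the enzyme that degrades insulin, rose by 0.96 in females and 0.72 in males (log2). Trib3, an inhibitor of AKT, fell by 1.95 and Foxo3 by 0.53 on the log2 scale, both in females. Akt2 (-0.03, SE 0.068) and Pik3r1 (-0.31, SE 0.13), the kinase and the regulatory subunit of the insulin pathway in liver, did not pass. Of 23 further regulators of gluconeogenic transcription only 2 (8.7%) were called, Kat2a higher (0.25) and Ppargc1b, a relative of Ppargc1a, lower (-1.28), and the glucagon receptor gene Gcgr was at 0.02 (SE 0.097).

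With age in females, where 31.8% of all genes were called, fasting genes were called in both directions and feeding genes mostly lower. Of 16 fasting genes 6 were higher, among them Pdk4, which keeps pyruvate from oxidation (1.67, SE 0.24, edgeR adjusted p = 0.00042), Acot1 (1.08) and Cyp4a14 (1.06), and 3 were lower, which were Lpin1 (-1.69), Lpin2 (-0.75) and Cpt1a (-0.57), the gate of fatty acid oxidation. Igfbp1, which insulin represses, had a log2 rise of 0.95 (SE 0.27, edgeR adjusted p = 0.0174). Of 20 feeding genes 9 were lower and 1 higher, with a median of -0.52. Thrsp (-1.72), Acss2 (-1.41) and Elovl6 (-1.39), all of fatty acid synthesis, fell most, and Pnpla3 rose by 1.27 (log2). Srebf1 (0.29, SE 0.20) and Mlxipl (0.01, SE 0.095), the genes of the lipogenic factors SREBP1 and ChREBP, were not called. Of 17 glycogen genes 9 were lower, with glycogen synthase Gys2 at -0.85, the phosphorylase Pygl at -0.49 and Ugp2 at -0.84, and 1 was higher. Of 17 clock genes 3 were higher and 8 lower, so the clock list moved with these groups as well.

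**Figure D3:**
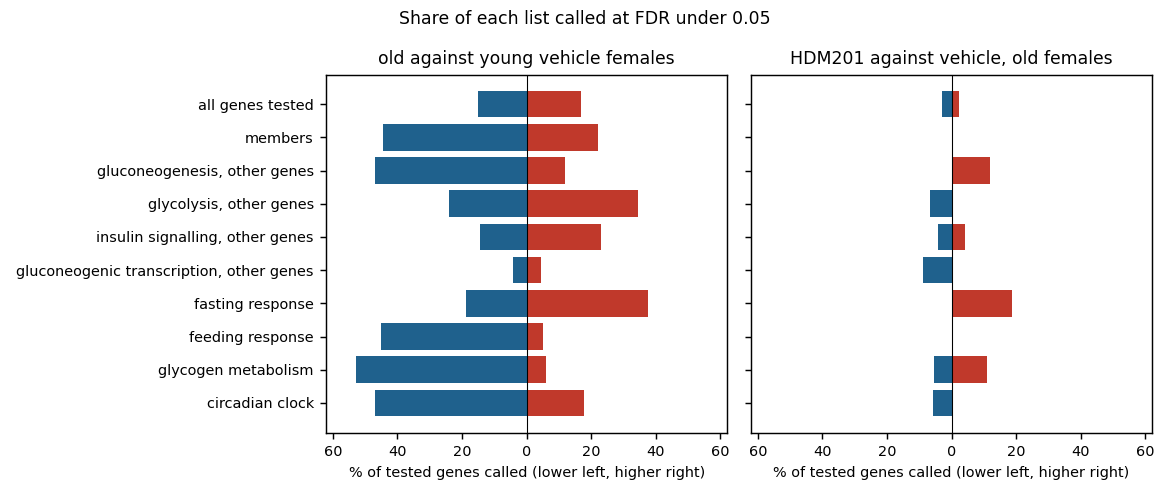
Share of tested genes of each list that was called lower (left, blue) or higher (right, red), in percent, with age in females and with HDM201 in old females; the first bar is all genes tested. With age 31.8% of all genes and 6 of the 9 members were called; with HDM201 5.25% of all genes and 0 members were called.

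With HDM201 in old females 3 of 16 fasting genes (18.8%, beside 5.25% of all genes) were called, all of them higher, with a median log2 fold change of 0.46 beside 0.0010 over all genes. They were Fgf21, a hormone that fasting induces (1.90, SE 0.50, edgeR adjusted p = 0.0491), Cyp4a10 (0.73) and Cpt1a (0.70). Fgf21 lay at 8.66, 1.48, 5.95, 13.3 and 3.90 CPM on HDM201 and at 1.34 to 2.21 CPM on vehicle, and HDM201-treated female 2 was within the vehicle range. Pdk4 (0.058, SE 0.25) and Igfbp1 (0.16, SE 0.27) were not called. Of the 20 feeding genes 0 were called, with a median of -0.16. On the log2 scale Grb14, an adaptor that inhibits the insulin receptor, rose by 0.56, the phosphatase gene Ptpn1 fell by 0.40 and the glycogen targeting subunit Ppp1r3b fell by 0.49. Hnf4a, a hepatocyte transcription factor, fell by 0.27 (log2), and the glycerol channel Aqp9 rose by 0.38.

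Between young females and young males all 20 feeding genes had a fold change above 0, with a median of 0.72, and 3 of 20 (15%, beside 10.5% of all genes) were called (Pnpla3 at 3.11, Pnpla5 at 2.24 and Acss2 at 1.28). The mean log2(CPM + 1) of the list was 7.53 and 7.42 in young males 3 and 4, and 8.43 and 8.34 in young males 1 and 2, which lay within the young female range of 8.27 to 9.37. Of 17 further gluconeogenic genes 2 were called (11.8%), the mitochondrial pyruvate carrier genes Mpc1 (0.60) and Mpc2 (0.55), both higher in young females. Of 29 further glycolytic genes 2 were called (6.9%), Ldha (-0.74) and Aldoa (-0.42), both lower. Of 47 further genes of insulin signalling 2 were higher and 5 lower (14.9%). Among the lower was Socs3, an inhibitor of cytokine and insulin signalling (-0.97). Over all genes the share called was 10.5%. Cell type markers differed between the same mice. The macrophage markers summed to 316 to 469 CPM in young females and 145 to 303 CPM in young males, and 8 of the 12 were called higher in females, as were 3 of 6 endothelial, 2 of 8 stellate cell and 2 of 5 cholangiocyte markers. Their part in these values was not tested.

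**Figure D4:**
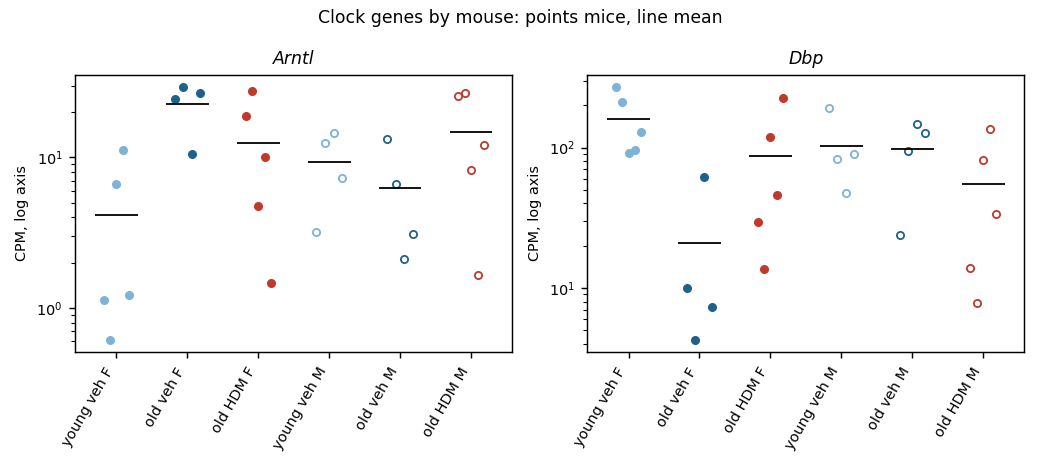
CPM of the clock genes Arntl and Dbp (vertical, log axes) by group, with one point per mouse and a line at the mean. Old vehicle females had 10.6 to 29.3 CPM of Arntl and 4.28 to 61.9 CPM of Dbp, and young females 0.615 to 11.2 and 91.6 to 269 CPM.

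To see which genes varied from mouse to mouse together with each member, deviations of log2(CPM + 1) from the group means were correlated over the 27 mice with counts and 12764 genes. These correlations share libraries and depth and are given as descriptions. Pklr had the closest likeness, with Tkfc (Pearson r = 0.945) and Khk (0.934), both enzymes of fructose breakdown, and with the overlapping Hcn3 (0.934). In the young males Khk ran from 306 to 909 CPM beside the wide range of Pklr. Of the companions, Pklr went with Pygl (0.905) and Slc2a2 (0.834) and against Igfbp1 (-0.608). Pck1 went with Slc7a2, a transporter of cationic amino acids (0.858), and with Sorbs3 (0.842). Ppargc1a went with Glt1d1 (0.871) and Slc7a2 (0.797).

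Among the members themselves Pck1 went with Ppargc1a (0.767), whereas Pck1 and G6pc (0.141) and Pck1 and Fbp1 (-0.095) showed little relation. Irs1 was most like Ndst1 (0.935), Baz2a (0.850) and Fyco1 (0.841), and Irs2 was most like Echdc3 (0.756), Rdh16f2 (0.673) and Hpgd (0.662). Foxo1 was most like Rhobtb1 (0.833), Nrg4 (0.833) and Clip1 (0.83), and Insr like Zfp871 (0.841), Tmem106b (0.839) and Dhtkd1 (0.792). G6pc was most like Prr12 (0.766), Brd3 (0.760) and Zfp418 (0.750), and Fbp1 like Pgk1 (0.752), Pxmp2 (0.750) and Fggy (0.745).

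**Figure D5:**
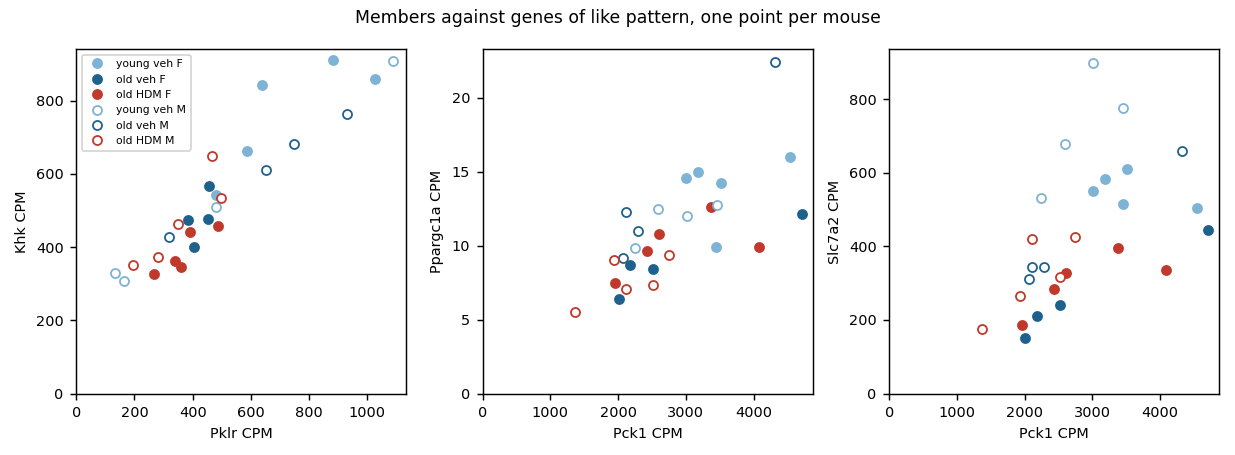
Levels in CPM of members against genes of like pattern, with one point per mouse in the colours of the 6 groups. Khk rises with Pklr over all groups (r = 0.934 of deviations from group means, n = 27), and old vehicle male 2 is the highest point in Ppargc1a at 22.4 CPM and 4323 CPM of Pck1.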

How the data were processed

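Whole liver RNA of 29 mice was sequenced. Per the labels and methods, STAR alignment to mm10 and SAMtools filtering came before HTSeq counting, and the authors deposited the counts without normalization, for 27 mice, and made FPKM values with Cufflinks, which they deposited for 29. Strand use, tool versions and the annotation are not given in the sources used here. Summed FPKM ran from 690769 to 6010507 over the mice, and FPKM was therefore used only as an alternative and for the 2 mice without counts; empty FPKM cells, 94.8% of which have a count of 0, were read as 0.

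Every fit held just the groups it compared, in edgeR 4.0.16 under R 4.3.3 (low counts removed by filterByExpr at 10 per mouse and 15 in total, TMM, quasi-likelihood F test, FDR under 0.05 over all genes tested). The script was tested on simulated counts. Each mouse is a separate animal. DESeq2 1.42.0, limma 3.58.1 on log2(FPKM + 0.1) and log2(FPKM + 1), RLE size factors, no filter, all groups in one fit, a replicate block, an FDR of 0.01 and each mouse left out were alternatives; the Dbp covariate, log2(CPM + 1), was added after seeing the data. The FPKM fits took the deposited values without further normalization, and those with males also held the mice without counts. The study's methods name DESeq2 without settings.

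The members and gene lists were chosen with earlier results of these data known. Named genes are the members, fixed companions of the pathway, up to 3 largest called rises and falls of each list per comparison, and for each member the 3 genes of mean CPM of at least 1 with the highest correlation. Some genes that this rule selects are not reported here. Marker lists cover hepatocytes, macrophages, T and NK cells, B and plasma cells, endothelium, stellate cells, cholangiocytes, adipose tissue, pancreas and erythroid cells. B and plasma cell markers summed to 3.91 to 5.52 CPM in young, 17.7 to 33.7 in old vehicle and 10.1 to 20.2 in old HDM201 females, and erythroid markers to 144 to 178, 148 to 223 and 16.1 to 149. In the same order T and NK cell markers summed to 2.91 to 4.66, 5.88 to 6.27 and 3.41 to 5.85 CPM, and cholangiocyte markers to 42.8 to 49.8, 49.6 to 71.2 and 84.0 to 150 CPM. Endothelial markers summed to 96.5 to 198 CPM, stellate cell markers to 141 to 426 CPM and pancreas markers to 5.48 to 18.3 CPM over all mice.

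Coordinates and exon lengths come from GENCODE vM21 (GRCm38, the assembly of mm10). RefSeq promoter windows hold 250 bases before to 50 after a start; 8 of 9 members matched, and Insr did not. Motifs were searched on both strands.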

Additional observations from a re-analysis of the deposited data

Results flagged for a closer look

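Of 54 groups of 4 or 5 mice, 1 held a mouse farther from the others than Dixon's 95% limit allows, which chance alone gives for about 1 group in 20. This was Pck1 in old vehicle male 2, at 4323 CPM beside 2067 to 2289 CPM in the other vehicle-treated old males.

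Among the mice without counts, young vehicle male 5 had Irs2 at 6.48 FPKM, above the 1.48 to 2.56 FPKM of the other young males, and Insr at 14.1 FPKM, above their 10.4 to 12.1 FPKM. FPKM sums differ between mice.

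The effect of age differed between females and males for 13 named genes of the pathway and clock lists, by edgeR's interaction test at an FDR under 0.05, as for 3.92% of all genes. They made up 18.8% of 16 fasting, 11.8% of 17 glycogen, 10% of 30 glycolytic and 6.25% of 48 insulin signalling genes. Of 17 clock genes they were 5.88% and of 20 feeding genes 5%. Of 17 further gluconeogenic genes and of 23 further regulators of gluconeogenic transcription 0 were called. Old females were 20 months and old males 24 months old, so sex and age span cannot be told apart in this test. The female minus male differences on the log2 scale were positive for Cyp4a14 (2.62), Acot1 (2.45), Cyp4a10 (1.86), Ldha (0.97) and Pik3r2 (0.47). They were negative for Ppp1r3g (-4.33), Pfkfb3 (-2.42), Per3 (-2.14), Acaca (-1.88), Aldoc (-1.44), Ugp2 (-1.13), Eif4ebp1 (-0.76) and Rheb (-0.39). No member gene was among them.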

How the results depend on the processing

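Of the 6 members called with age in females, 6 were called with RLE size factors, DESeq2 and no filter, 5 with all 6 groups in one fit (Pklr lost), 4 with the replicate block (Ppargc1a and Insr lost), 1 at an FDR of 0.01 (Fbp1), 0 with the Dbp covariate, and 4 to 7 with one mouse left out. Elsewhere a member was called in the sex difference of the age effect (1 with DESeq2, 1 with no filter, 0 to 2 with one mouse left out) and between young females and males (1 with the replicate block, 0 to 1 with one mouse left out). No label says that replicate numbers pair the mice, so the block is given only here. Deviations of same-numbered mice had r of -0.229 to 0.228. Pairs of unlike number were not correlated for reference, so this does not settle whether the numbers mark a shared batch.

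Counts of all genes called moved by more than 1.5 times as follows. For HDM201 in females, DESeq2 gave 1330, one fit of all groups 208, the block 366, an FDR of 0.01 110, the Dbp covariate 64 and one mouse left out 185 to 956. For HDM201 in males these were 162, 6, no change with the block, 0, 0 and 0 to 13, with 22 without a filter. For age in females an FDR of 0.01 gave 2513 and the Dbp covariate 103. For age in males DESeq2 gave 1318, no filter 968, one fit 2007, the block 29, an FDR of 0.01 82 and one mouse left out 144 to 579. Between young females and males one fit gave 2483, the block 858, an FDR of 0.01 480 and one mouse left out 764 to 1864. For the sex difference in the HDM201 effect DESeq2 gave 643, no filter 122, the block 0, an FDR of 0.01 0 and one mouse left out 0 to 314. For that in the age effect DESeq2 gave 1187, the block 183, an FDR of 0.01 48 and one mouse left out 207 to 1193. The causes were not tested.

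Some fold changes that were not called changed sign. For Pck1 with HDM201 in females DESeq2 gave 0.0016, no filter 0.0016, one fit 0.0071 and FPKM 0.036. Under FPKM plus 0.1 and plus 1, G6pc was at 0.38 and 0.37 with HDM201 in males and at -0.28 with age in males, Fbp1 at -0.058 and -0.057 in the sex difference of HDM201, and in that of age Foxo1 at 0.055 and 0.043, G6pc at 0.051 and 0.045 and Insr at 0.0014 and 0.0020. Irs2 with age in males was at -0.0073 under FPKM plus 1. Foxo1 in the sex difference of age was at 0.00024 without a filter and 0.18 with the block. With the Dbp covariate, age in females gave 0.46 for Pck1 and 0.31 for Foxo1, and HDM201 in females gave 0.087 for Irs1 and -0.087 for Ppargc1a. With one mouse left out, HDM201 in females ranged from -0.15 to 0.35 for Pck1, -0.12 to 0.14 for Foxo1 and -0.11 to 0.12 for Irs1. Age in males ranged from -0.38 to 0.068 for Pck1, -0.090 to 0.12 for G6pc, -0.11 to 0.40 for Ppargc1a and -0.36 to 0.0013 for Irs1. The sex difference of HDM201 ranged from -0.38 to 0.11 for Irs2, and that of age from -0.57 to 0.10 for Pck1 and -0.17 to 0.10 for Foxo1.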
